A study of Mus musculus with 14 samples.

Results

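The 10 genes described here encode transcription factors that build and maintain the heart: the zinc finger factors Gata4 and Gata6, the homeobox factor Nkx2-5, the T-box factors Tbx5 and Tbx20, the MADS-box factors Mef2a and Mef2c, the basic helix-loop-helix factors Hand1 and Hand2, and the coactivator Myocd. Each was followed through all probe sets of the array annotated with that gene alone, which gave 29 of the 45037 probe sets tested and 10 of the 18193 genes with a probe set of their own. A probe set is a group of short probes for 1 transcript, and 0 probe sets named a member beside another gene.

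Expression in heart and hippocampus of C57/BL6 mice of both ages was measured on 14 single-colour Affymetrix mouse arrays. Pup tissue was dissected at 7 days of age (sex not given), as 3 biological replicates of each tissue on 1 array apiece, and its mRNA was isolated with TRIzol and a MicroFastTrack kit. RNA of adult tissue, from a 10 week old male mouse in the words of the study's methods, was purchased from Zyagen, and its 2 biological replicates of each tissue were run on 4 arrays. No mouse carried an allele or received a treatment. Both technical arrays of each adult sample were averaged, so that 10 biological samples were compared. The labels do not tie the adult samples to different animals, and p-values that involve them then cover a spread which may be technical only. Age and the source and preparation of the RNA cannot be told apart.

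These factors bind neighbouring sites in the control regions of heart muscle genes and activate them together. GATA, NK2 and T-box factors bind each other directly, MEF2 factors bind an A/T-rich site in muscle and neuronal genes alike, HAND factors pair with other helix-loop-helix proteins, and myocardin binds no DNA of its own but acts through serum response factor. Mutations of several of them cause defects of the heart's septa and valves, and MEF2 factors are also known in hippocampal neurons for their control of synapse number.

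The tissue labels were compared with markers of cardiomyocytes, neurons and hippocampal fields. The mean of 10 cardiomyocyte markers, such as Tnni3, Ttn and Myl3, lay between 14.64 and 15.05 on the log2 scale in the 3 pup heart samples and between 13.63 and 13.93 in the 2 adult heart samples. It lay between 9.84 and 10.99 in pup hippocampus and between 9.78 and 9.79 in adult hippocampus. Of these markers, 9 of 10 were higher in heart than in hippocampus in pups and 8 of 10 in adults. The mean of 10 neuron markers lay between 13.05 and 13.13 in pup hippocampus, 12.34 and 12.66 in adult hippocampus, and between 10.44 and 10.92 over all heart samples, with 5 of 10 lower in heart at each age. Of 10 hippocampal field markers 3 were lower in heart at each age and 1 higher, Dsp in pups and Prox1 in adults. Their mean lay between 10.86 and 11.21 in pup hippocampus and between 9.82 and 10.27 in pup heart. In adults it overlapped, at 10.51 to 10.61 in hippocampus and 10.16 to 10.62 in heart. Array medians lay between 8.73 and 8.98. The 18 hybridization controls, transcripts added to every sample, averaged 12.77 to 13.44 on the pup arrays and 10.53 to 11.18 on the adult arrays. These ranges did not overlap, so hybridization and age cannot be told apart either.

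Compared with hippocampus, pup heart had higher values of Gata4, Gata6, Tbx20, Mef2a and Hand2 on 7 probe sets and a lower value of Mef2c on 1 probe set. Adult heart had higher values of Gata4, Tbx5 and Myocd on 4 probe sets, and lower values of Mef2c and of the other Myocd probe set on 4. From pup to adult heart 3 probe sets rose, 1 each of Tbx5 (21.1-fold on 1425694_at), Myocd and Tbx20. Another 6 fell, of Mef2a, Mef2c and Hand2 and of the other Myocd probe set and another Tbx20 probe set. Of these calls with age only that of Tbx5 held without any single sample, and the leading Tbx5 probe set was not called. The rises of Myocd and Tbx20 were also lost under other alternatives given below. Nkx2-5 and Hand1 were not called in any comparison. Called here means an adjusted p under 0.05 in a single limma fit over all 10 samples and all probe sets, with Benjamini-Hochberg adjustment, and "higher", "lower", "rose" and "fell" refer to such calls.

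In pups, 7 of the 29 probe sets (24.1%) were higher in heart, where 6.77% of all probe sets were, and 1 (3.45%) was lower, where 7.52% were. In adults, 4 (13.8%) were higher in heart against 11.9% of all probe sets, and 4 (13.8%) lower against 10.3%, which are shares near those of the array. From pup to adult heart 3 (10.3%) rose against 11.7% of all and 6 (20.7%) fell against 8.32%. From pup to adult hippocampus 0 rose (8.38% of all) and 1 fell (6.52%), with 6 of 29 at an unadjusted p under 0.05 in limma. The median difference of the 29 probe sets was 0.31 log2 units between pup tissues (0.10 over all probe sets), 0.06 between adult tissues (0.06 over all), -0.14 with age in heart (0.11 over all) and 0.01 with age in hippocampus (0.12 over all). The small numbers of samples limit the precision, with a median standard error of 0.301 for a difference between pup tissues and 0.368 between adult tissues.

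**Figure D1:**
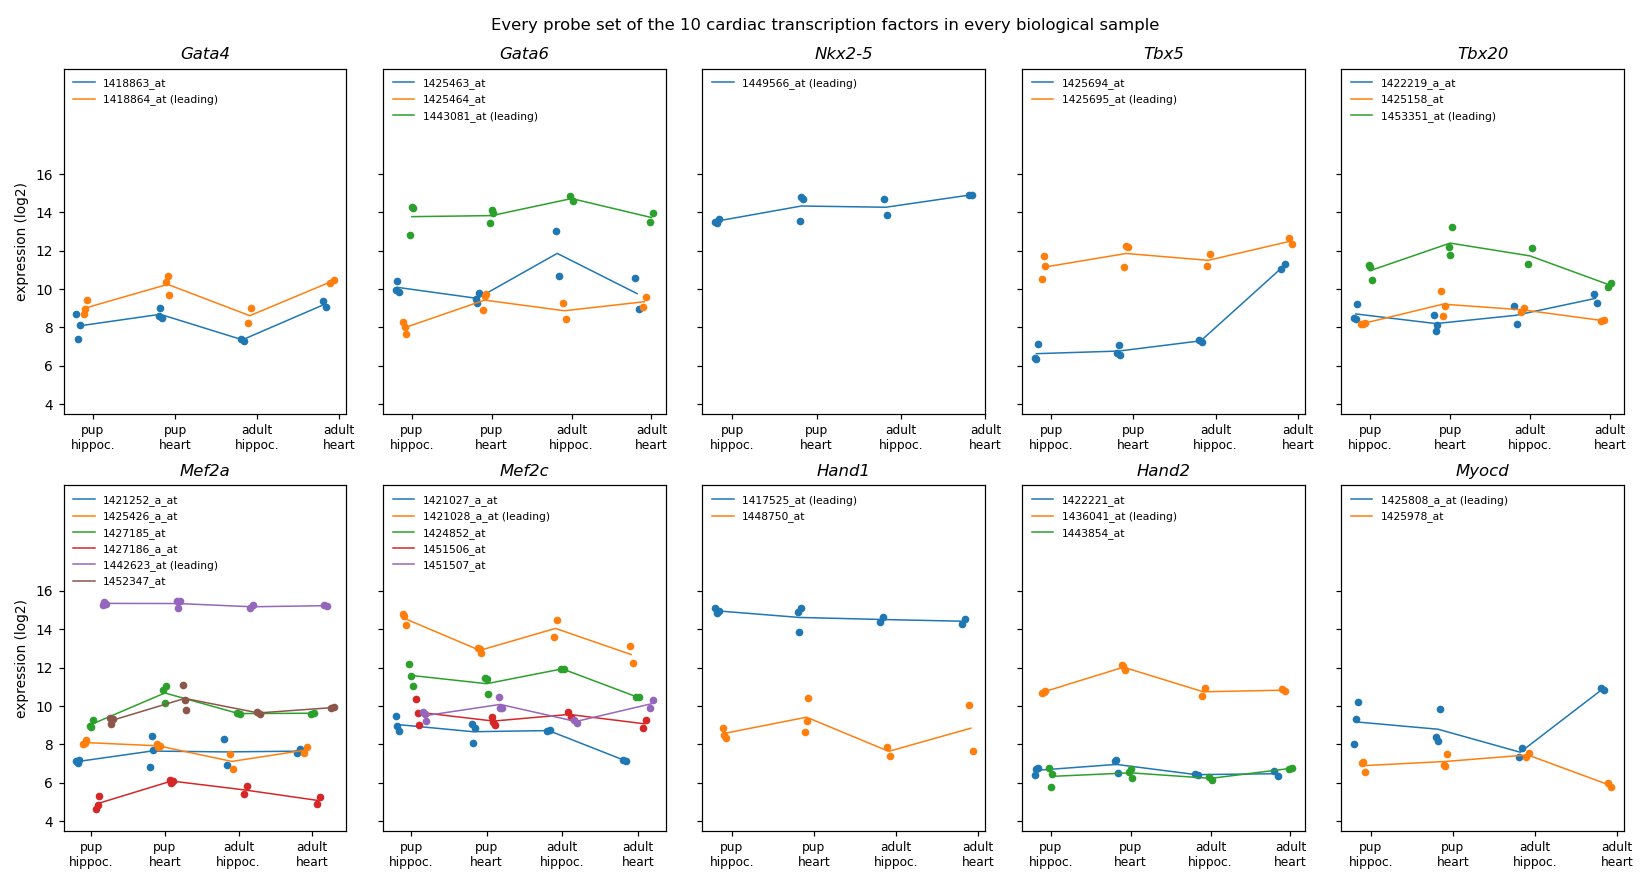
Expression on the log2 scale (vertical axis) of the 29 probe sets in the 4 groups (horizontal axis), with 1 panel per gene, 1 colour per probe set, 1 point per biological sample (adult technical arrays averaged) and lines through the group means. Tbx5 1425694_at lies between 6.36 and 7.35 in every sample other than the 2 adult heart samples, at 11.04 and 11.30, while Mef2a 1442623_at and Hand1 1417525_at lie near the top of the scale in all 4 groups.

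GATA factors bind the sequence GATA and act early, when the heart tube and the endoderm form. Gata4, needed for heart tube formation and later for cardiomyocyte growth, was higher in heart at both ages. Its leading probe set, the one of a gene with the highest mean over all arrays, was 1418864_at, which measured 8.70, 8.94 and 9.41 in pup hippocampus, 10.37, 10.66 and 9.72 in pup heart, 8.24 and 8.99 in adult hippocampus, and 10.34 and 10.48 in adult heart. No heart sample fell below the highest hippocampus sample. The difference was 1.23 ± 0.32 log2 units (SE) in pups, which is 2.35-fold (limma adjusted p = 0.0294), and 1.79 ± 0.39 in adults, which is 3.47-fold (limma adjusted p = 0.0103). The pup call was lost without pup hippocampus replicate 1 or 2 or pup heart replicate 1 or 2, and the adult call without adult hippocampus replicate 1 or either adult heart replicate. The pup call was also lost in a fit of only the pup groups (limma adjusted p = 0.0599), with 4 adult arrays of a tissue as replicates (0.0807) and with technical arrays in a random block (0.0888).

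The other Gata4 probe set, 1418863_at, measured 8.69, 7.40 and 8.13 in pup hippocampus and 8.58, 9.004 and 8.48 in pup heart, where the groups overlapped. In adults it measured 7.42 and 7.29 in hippocampus and 9.36 and 9.05 in heart, a difference of 1.85 ± 0.39 (limma adjusted p = 0.00932). This call was lost without adult hippocampus replicate 2 or adult heart replicate 1. The pup difference on this probe set was 0.61 ± 0.32 and was not called. Neither Gata4 probe set was called with age, with differences of 0.16 and 0.52 in heart and -0.40 and -0.72 in hippocampus.

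Gata6, a partner of Gata4 in the outflow tract and in smooth muscle, gave different patterns on its 3 probe sets. The probe set 1425464_at measured 8.30, 8.01 and 7.66 in pup hippocampus and 8.93, 9.62 and 9.73 in pup heart, and these groups did not overlap. The difference was 1.44 ± 0.33, or 2.71-fold (limma adjusted p = 0.0156), a call lost without pup hippocampus replicate 2 or 3. In adults the same probe set measured 9.30 and 8.45 in hippocampus and 9.09 and 9.59 in heart, which overlapped.

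The 2 other Gata6 probe sets were not called in any comparison. The leading one, 1443081_at, lay between 12.82 and 14.84 in all samples, with a difference between pup tissues of 0.05 ± 0.39. It stood at percentile 92.4 of all probe sets in pup hippocampus and 95.8 in adult hippocampus, and whether it reads Gata6 alone was not tested. On 1425463_at the adult hippocampus samples measured 13.05 and 10.68 and the adult heart samples 10.56 and 8.97, a difference of -2.10 ± 0.71 (limma adjusted p = 0.0616). The samples within each adult tissue lay far apart on that probe set, and so did technical arrays of 1 sample, at 11.74 and 9.61 in adult hippocampus replicate 2.

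Nkx2-5, the homeobox factor that marks heart progenitors and persists in working myocardium, has 1 probe set, 1449566_at. It measured 13.51, 13.47 and 13.66 in pup hippocampus, 13.53, 14.78 and 14.69 in pup heart, 14.67 and 13.87 in adult hippocampus, and 14.88 and 14.93 in adult heart. The pup groups overlapped because heart replicate 1 lay with the hippocampus samples. The tissue difference was 0.79 ± 0.35 in pups (limma adjusted p = 0.179) and 0.64 ± 0.43 in adults (limma adjusted p = 0.327). The probe set stood at percentile 91.7 of all probe sets in pup hippocampus and 94.3 in adult hippocampus, against 94.6 and 96.8 in heart. Whether so high a value in hippocampus reads Nkx2-5 alone was not tested. No comparison of Nkx2-5 was called. The 7 genes of the NK2 family, which includes it, had 0 calls in all 5 comparisons, where 1.16% to 11.2% of all genes were called in a direction.

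T-box factors share the T-box DNA-binding domain. Tbx5, which patterns the atria, septa and conduction system, had the largest change among the 29 probe sets. On 1425694_at it measured 6.41, 6.36 and 7.13 in pup hippocampus, 6.69, 7.07 and 6.55 in pup heart, 7.35 and 7.26 in adult hippocampus, and 11.04 and 11.30 in adult heart. Both adult heart samples lay more than 3 log2 units above every other sample. The probe set rose by 4.40 ± 0.30 from pup to adult heart, 21.1-fold (limma adjusted p = 0.000146), and was 3.86 ± 0.32 higher in adult heart than in adult hippocampus, 14.6-fold (limma adjusted p = 0.000147). In pups the heart exceeded the hippocampus by 0.14 ± 0.26, which was not called. The mean of this probe set over the samples was below the median of all probe sets, so that a filter on dim probe sets left it out, and the folds are taken against low values that were not compared with background. Single arrays of adult heart measured 10.28 and 11.80 for replicate 1 and 11.36 and 11.23 for replicate 2.

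The leading Tbx5 probe set, 1425695_at, measured 10.53, 11.71 and 11.19 in pup hippocampus, 11.13, 12.23 and 12.22 in pup heart, 11.19 and 11.81 in adult hippocampus, and 12.66 and 12.34 in adult heart. The pup groups overlapped, and adult heart lay above the pup heart samples by 0.64 ± 0.44, which was not called. The adult tissue difference was 1.00 ± 0.48 (limma adjusted p = 0.168). The 2 probe sets of Tbx5 therefore gave age differences in heart of 4.40 and 0.64 log2 units. The age difference in heart exceeded that in hippocampus by 3.73 ± 0.42 on 1425694_at (limma adjusted p = 0.00479) and by 0.28 ± 0.62 on 1425695_at. By the mean of both probe sets Tbx5 rose by 2.52 ± 0.28 from pup to adult heart (limma adjusted p = 0.000792). By that mean the difference between tissues in the change with age was 2.01 ± 0.39 (limma adjusted p = 0.0291). Only 1425694_at was called on its own, so this mean does not show that the probe sets agree.

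Tbx20, which acts in chamber growth and in the valves, moved in the opposite way on its leading probe set. On 1453351_at it measured 11.25, 11.17 and 10.48 in pup hippocampus, 12.18, 11.77 and 13.26 in pup heart, 11.32 and 12.14 in adult hippocampus, and 10.12 and 10.30 in adult heart. Pup heart was the highest group and adult heart the lowest, with the adult heart samples below every other sample. The value was 1.44 ± 0.40 higher in pup heart than in pup hippocampus (limma adjusted p = 0.0410) and fell by 2.19 on the log2 scale from pup to adult heart (SE 0.45, 4.56-fold, limma adjusted p = 0.00894). The pup tissue call was lost without any single pup sample other than heart replicate 2, and also without either adult heart replicate. The age call was lost without either adult heart replicate.

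On 1425158_at Tbx20 was again highest in pup heart, but adult heart was not the lowest group. It measured 8.17, 8.20 and 8.26 in pup hippocampus, 9.88, 8.62 and 9.14 in pup heart, 8.81 and 9.03 in adult hippocampus, and 8.34 and 8.38 in adult heart. Its differences missed the threshold, at 1.01 ± 0.30 between pup tissues (limma adjusted p = 0.0516) and -0.86 ± 0.33 with age in heart (limma adjusted p = 0.102). The third probe set, 1422219_a_at, went the other way, from 8.66, 7.83 and 8.12 in pup heart to 9.74 and 9.29 in adult heart, a rise of 1.31 ± 0.38 (limma adjusted p = 0.0386). This last call was lost under both other scalings of the arrays, without pup heart replicate 2 or 3, without either adult heart replicate and without pup hippocampus replicate 1 or 2. A probe set whose name ends in a_at matches several transcripts of 1 gene.

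The promoter of Tbx20 is printed, and those of Mef2a and Hand2 are printed with their values, because a probe set of each of these genes was higher in pup heart than in pup hippocampus and fell from pup to adult heart. RefSeq windows of build GRCm38.p6, from 250 bases before the start to 50 after it, were matched by symbol for 5 of the 10 members, with 7 windows in all. On both strands a search was made for the GATA site (AGATAA or TGATAA), the NK2 site (AAGTG), the E-box bound by helix-loop-helix factors (CANNTG), the T-box site (AGGTGT or GGTGTG), the MEF2 site and the CArG box bound by serum response factor. Of 32851 windows of the same length, 18.6% held the GATA site, 46.4% the NK2 site, 72.3% the E-box, 25.8% the T-box site, 3.19% the MEF2 site and 1.63% the CArG box. Capitals mark matches. The window of Tbx20, chr9:24774254-24774553 on the minus strand, held 0 matches.
Tbx20: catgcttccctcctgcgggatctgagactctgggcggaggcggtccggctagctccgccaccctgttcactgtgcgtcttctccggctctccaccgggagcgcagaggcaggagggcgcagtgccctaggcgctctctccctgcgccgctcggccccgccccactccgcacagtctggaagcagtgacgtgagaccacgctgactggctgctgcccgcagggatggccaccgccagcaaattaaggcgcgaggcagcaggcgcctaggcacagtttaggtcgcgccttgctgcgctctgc

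MEF2 factors switch on contractile genes in muscle and activity-dependent genes in neurons. Mef2a, the main form in postnatal heart, has 6 probe sets, and 3 of them were higher in pup heart than in pup hippocampus. On 1427185_at it measured 8.94, 8.88 and 9.29 in pup hippocampus, 10.84, 10.17 and 11.03 in pup heart, 9.63 and 9.59 in adult hippocampus, and 9.60 and 9.65 in adult heart. The pup heart samples stood above all others, and the adult tissues were level, at a difference of 0.02 ± 0.32. The pup difference was 1.64 ± 0.26, 3.12-fold (limma adjusted p = 0.00217), and Mef2a fell by 1.06 on the log2 scale from pup to adult heart (SE 0.29, limma adjusted p = 0.0299). The call with age was lost without pup heart replicate 1 or 3 or either adult heart replicate.

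On 1427186_a_at Mef2a measured 4.62, 4.83 and 5.29 in pup hippocampus, 6.16, 6.01 and 6.10 in pup heart, 5.42 and 5.82 in adult hippocampus, and 4.91 and 5.23 in adult heart. It was 1.18 ± 0.24 higher in pup heart than in pup hippocampus (limma adjusted p = 0.00988) and fell by 1.02 from pup to adult heart (SE 0.27, limma adjusted p = 0.0265). These values lie near the low end of the deposited range, which starts at 2.67, and were not compared with background. The call with age was lost without pup heart replicate 1 or either adult heart replicate. On 1452347_at the pup samples measured 9.35, 9.04 and 9.31 in hippocampus and 11.12, 10.29 and 9.78 in heart, a difference of 1.16 ± 0.31 (limma adjusted p = 0.0353). That call was lost when any 1 of 9 samples was left out, all but pup heart replicate 3, and its age difference in heart, -0.48 ± 0.35, was not called.

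Of the other 3 Mef2a probe sets, the leading one, 1442623_at, lay between 15.09 and 15.47 in all 10 samples, close to the top of the deposited range, and was called in no comparison. The probe set 1421252_a_at ranged from 6.83 to 8.42 and was likewise not called. The probe set 1425426_a_at fell with age in hippocampus, from 8.02, 8.05 and 8.22 to 7.49 and 6.73, a difference of -0.99 ± 0.27 (limma adjusted p = 0.0369). This was the 1 call among the 29 probe sets in hippocampus, and it was lost without any single pup hippocampus sample, without adult hippocampus replicate 2 and without either adult heart replicate.

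The Mef2a window, chr7:67372809-67373108 on the minus strand, held a MEF2 site whose first base lay at -2 from the start and a T-box site at 13. It held no match to the other motifs.
Mef2a: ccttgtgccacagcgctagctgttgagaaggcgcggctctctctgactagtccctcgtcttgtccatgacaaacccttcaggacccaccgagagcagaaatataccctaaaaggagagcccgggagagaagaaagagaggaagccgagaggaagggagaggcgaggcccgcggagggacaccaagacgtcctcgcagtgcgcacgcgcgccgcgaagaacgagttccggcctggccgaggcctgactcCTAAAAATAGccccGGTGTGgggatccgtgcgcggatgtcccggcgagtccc

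Mef2c, needed for looping of the heart and also strongly expressed in excitatory neurons, was lower in heart than in hippocampus on 1 of its 5 probe sets in pups and on 3 in adults. By the mean over all 5 the differences were -0.47 ± 0.24 (limma adjusted p = 0.217) and -0.79 ± 0.29 (0.0829), which were not called. Its leading probe set, 1421028_a_at, measured 14.78, 14.71 and 14.22 in pup hippocampus, 13.002, 12.97 and 12.74 in pup heart, 13.61 and 14.49 in adult hippocampus, and 13.14 and 12.23 in adult heart. All heart samples lay below all hippocampus samples. The difference was -1.67 ± 0.32 in pups (3.18-fold lower, limma adjusted p = 0.00689) and -1.36 ± 0.39 in adults (2.57-fold lower, limma adjusted p = 0.0344). In whole tissue, fewer cells of a type that expresses a gene and less RNA of it per cell cannot be told apart. The adult call was lost without pup hippocampus replicate 2, adult hippocampus replicate 2 or adult heart replicate 2, while no single sample decided the pup call. The adult call was also lost in a fit of only the adult groups, with a replicate block and with the first technical arrays of adults alone.

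Among the 4 other Mef2c probe sets, 1424852_at measured 11.94 and 11.93 in adult hippocampus and 10.45 and 10.46 in adult heart, a difference of -1.48 ± 0.41 (limma adjusted p = 0.0280). The probe set 1421027_a_at measured 9.46, 8.97 and 8.68 in pup hippocampus, 9.08, 8.06 and 8.84 in pup heart, 8.70 and 8.75 in adult hippocampus, and 7.19 and 7.15 in adult heart. Adult heart was below every other sample on it, at -1.55 ± 0.37 against adult hippocampus (limma adjusted p = 0.0161) and at -1.49 ± 0.34 against pup heart (limma adjusted p = 0.0141). Each of these adult tissue calls was lost without any single adult sample, and the age call without either adult heart replicate. On 1451506_at the tissue differences were -0.46 in pups and -0.49 in adults, and on 1451507_at they were 0.59 and 0.93, in favour of heart, with none called.

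HAND factors divide the work of the ventricles, Hand1 mainly in the left and Hand2 in the right, and both are used in the sympathetic ganglia and outflow tract. Hand2 on its leading probe set, 1436041_at, measured 10.70, 10.72 and 10.79 in pup hippocampus, 12.14, 12.07 and 11.86 in pup heart, 10.53 and 10.95 in adult hippocampus, and 10.87 and 10.78 in adult heart. Only the pup heart samples stood above 11. They exceeded pup hippocampus by 1.29 ± 0.20, 2.44-fold (limma adjusted p = 0.00230), and Hand2 fell by 1.20 on the log2 scale from pup to adult heart (SE 0.23, 2.29-fold, limma adjusted p = 0.00650). The adult tissues differed by 0.09 ± 0.25. The pup call held without any single sample, and the age call was lost without adult heart replicate 2. The other Hand2 probe sets, 1422221_at and 1443854_at, lay between 5.80 and 7.21 in all samples and were not called.

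The Hand2 window, chr8:57320733-57321032 on the plus strand, held GATA sites at -215 and -172, an NK2 site at -235 that overlaps an E-box at the same position, and another E-box at -246.
Hand2: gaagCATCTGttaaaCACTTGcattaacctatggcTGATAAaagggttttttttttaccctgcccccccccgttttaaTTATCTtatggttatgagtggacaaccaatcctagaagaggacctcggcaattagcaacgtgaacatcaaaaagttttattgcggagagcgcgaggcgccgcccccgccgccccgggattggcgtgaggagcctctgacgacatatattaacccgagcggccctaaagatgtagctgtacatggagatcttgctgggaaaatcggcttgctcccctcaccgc

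Hand1 was not called in any comparison. Its leading probe set, 1417525_at, lay between 13.86 and 15.13 in all samples, with differences from -0.45 to -0.09 log2 units over the 4 tissue and age comparisons. The other, 1448750_at, measured 8.62, 9.22 and 10.41 in pup heart and 10.05 and 7.64 in adult heart, against 8.36 to 8.86 in pup hippocampus and 7.42 and 7.86 in adult hippocampus. The heart samples spread widely and overlapped the pup hippocampus samples. The adult heart value of 10.05 was the mean of technical arrays at 12.07 and 8.02, the widest such gap among the 29 probe sets.

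Myocardin, Myocd, drives smooth muscle and cardiac genes through the CArG box. Its 2 probe sets changed in opposite directions in adult heart. On 1425808_a_at it measured 8.03, 9.30 and 10.19 in pup hippocampus, 8.36, 8.18 and 9.82 in pup heart, 7.36 and 7.83 in adult hippocampus, and 10.93 and 10.83 in adult heart. The adult heart samples were the highest of all, 3.29 ± 0.69 above adult hippocampus (9.76-fold, limma adjusted p = 0.00845) and 2.09 ± 0.63 above pup heart (limma adjusted p = 0.0421).

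Behind these adult heart means the technical arrays of Myocd 1425808_a_at disagreed. The first technical array measured 9.06 for replicate 1 and 8.96 for replicate 2, and the second measured 12.80 and 12.70, so that the close means of 10.93 and 10.83 each average arrays 3.74 log2 units apart. With the first technical arrays alone the adult tissue difference was 1.28 (limma adjusted p = 0.269) and the age difference in heart 0.22 (limma adjusted p = 0.865). With the second alone they were 5.29 (limma adjusted p = 0.00141) and 3.96 (limma adjusted p = 0.00420). The adult tissue call was also lost without adult hippocampus replicate 1 or adult heart replicate 1. The age call was also lost without pup hippocampus replicate 2, pup heart replicate 1 or 2, or any single adult sample, and under quantile normalization, where its limma adjusted p was 0.0502.

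On Myocd 1425978_at the order was the reverse: 7.02, 7.10 and 6.55 in pup hippocampus, 6.92, 6.89 and 7.51 in pup heart, 7.35 and 7.56 in adult hippocampus, and 5.98 and 5.77 in adult heart. Adult heart lay below every other sample, at -1.58 ± 0.31 against adult hippocampus (limma adjusted p = 0.00639) and at -1.24 ± 0.28 against pup heart (limma adjusted p = 0.0142). The adult tissue call was lost without adult hippocampus replicate 2 and the age call without either adult heart replicate. Among genes with at least 3 probe sets and at least 1 call, 15.6% had calls in both directions between adult tissues and 13.7% between pup and adult heart. Myocd, with 2 probe sets, is not among those genes. Genes with more probe sets have more chances of opposite calls, so these shares are not a measure for Myocd.

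**Figure D2:**
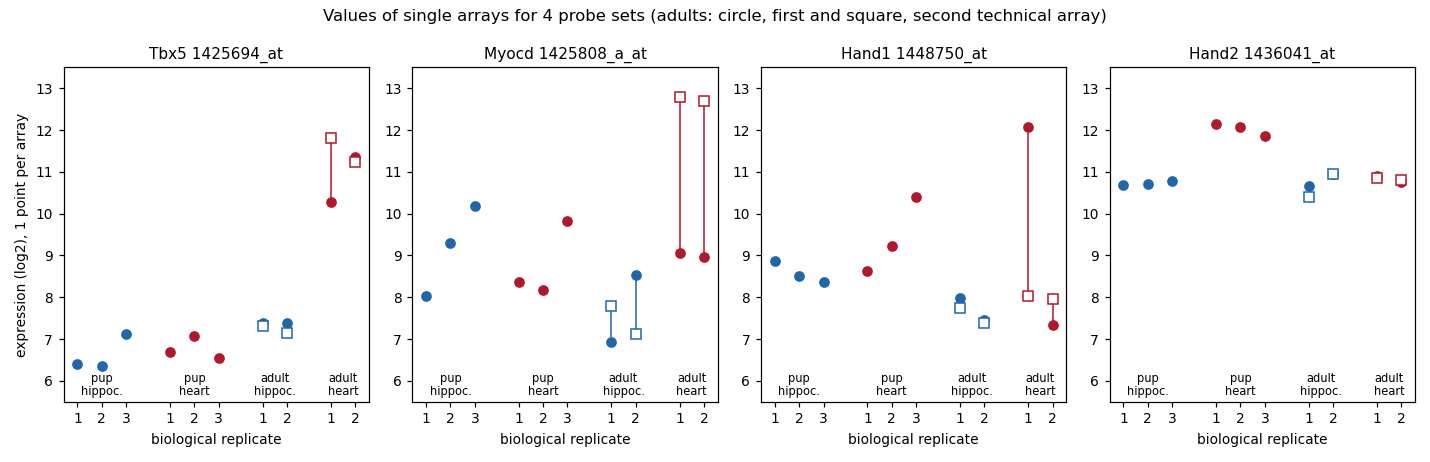
Expression on the log2 scale of single arrays (vertical axis) for 4 probe sets, by biological replicate within each group (horizontal axis, heart in red and hippocampus in blue), with the technical arrays of an adult sample joined by a line. The adult heart arrays of Myocd 1425808_a_at lie at 8.96 and 9.06 and at 12.70 and 12.80, and those of Hand1 1448750_at replicate 1 at 12.07 and 8.02, while those of Tbx5 1425694_at lie at 10.28 or above.

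Over all adult samples, technical arrays differed by a median of 0.36 log2 units on the 29 probe sets and 0.35 over all probe sets.

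**Figure D3:**
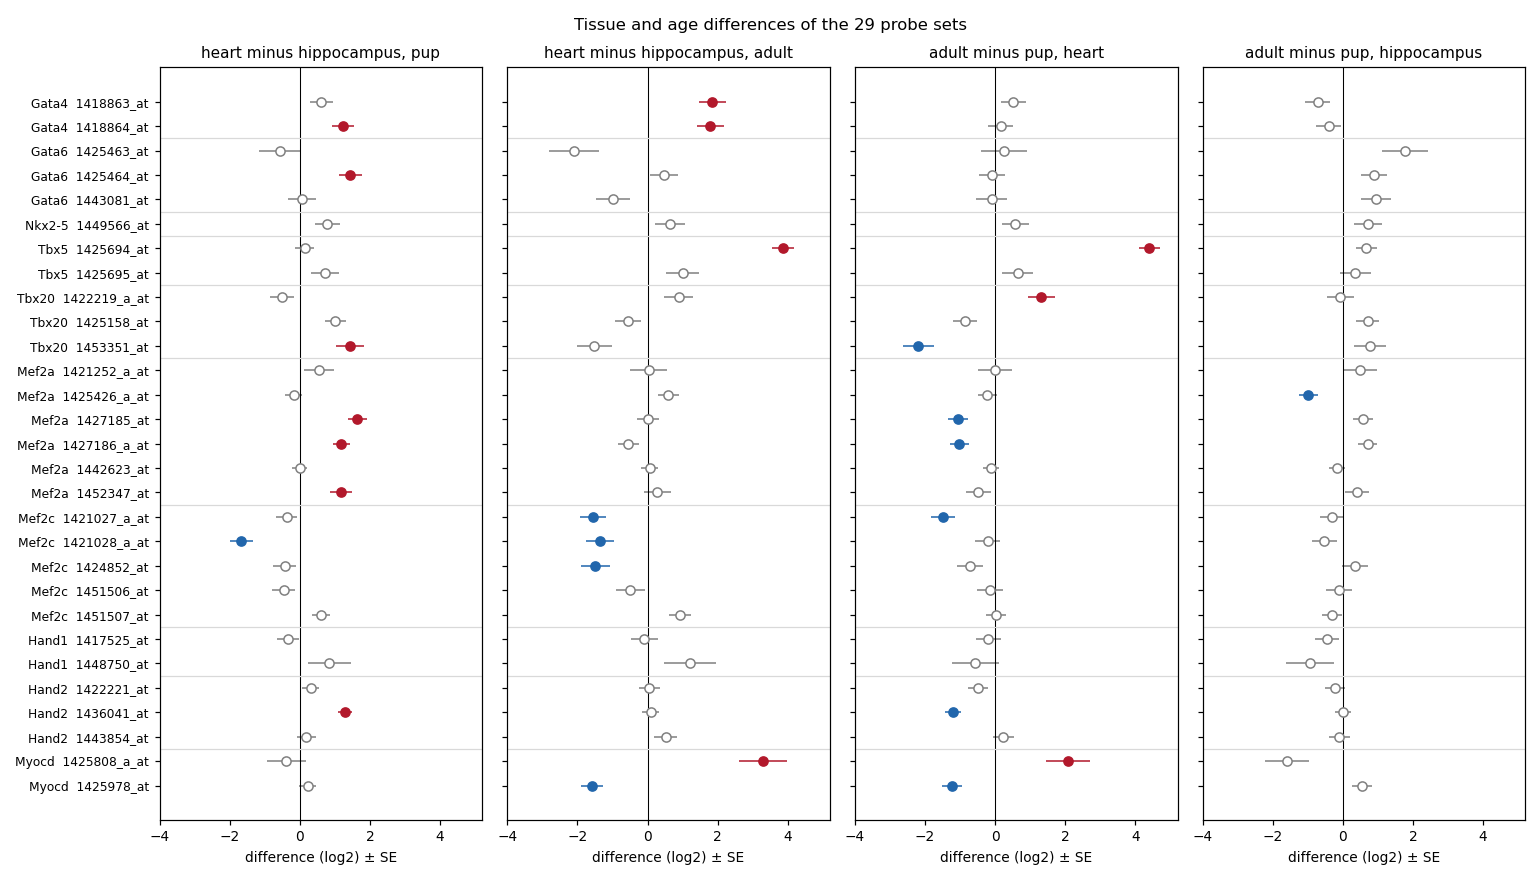
Differences on the log2 scale with their standard errors (horizontal axis) for each of the 29 probe sets (vertical axis) between tissues at each age and between ages in each tissue, filled red where higher, filled blue where lower and open where not called. The calls are 7 higher and 1 lower in pup heart, 4 and 4 in adult heart, 3 and 6 with age in heart, and 0 and 1 with age in hippocampus.

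Whether a change with age differed between the tissues was tested directly, by subtracting the age difference of hippocampus from that of heart. On this measure 1 of the 29 probe sets was higher, where 2.37% of all probe sets were, and 3 were lower, where 1.18% were. The higher one was Tbx5 1425694_at, given above. The lower ones were Tbx20 1453351_at at -2.96 ± 0.64 (limma adjusted p = 0.0375), Mef2a 1427186_a_at at -1.73 ± 0.38 (limma adjusted p = 0.0414) and Myocd 1425978_at at -1.80 ± 0.40 (limma adjusted p = 0.0419). For each of these 3, the heart mean fell with age while the hippocampus mean was higher in adults, by 0.77, 0.71 and 0.56 log2 units in that order, and these hippocampus differences were not called. Each of the 3 calls was lost without pup hippocampus replicate 1 or 2, without pup heart replicate 1 and without any single adult sample, and those of Tbx20 and Myocd also without pup hippocampus replicate 3. The Tbx5 call held without any single sample. Where 1 of the 2 adult samples of a tissue was left out, the lone sample was assumed to vary like the other groups.

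Known targets of these factors were read from the same fit. They include the 10 cardiomyocyte markers used above for the tissue labels, so the counts of these lists are not separate results. Of 42 listed direct target genes, which encode sarcomere, calcium-handling and peptide products of heart muscle, 39 were measured, each through its leading probe set. In pups 30 were higher in heart and 0 lower, with a median difference of 3.79 log2 units against 0.10 over all genes, of which 7.24% were higher. Ckm, the muscle creatine kinase, was 5.37 ± 0.23 higher, Ttn, the giant spring of the sarcomere, 6.21 ± 0.29, Tnni3, cardiac troponin I, 6.60 ± 0.37, and Myl3, a ventricular light chain, 4.34 ± 0.25. In adults 23 of 39 were higher in heart and 0 lower, with a median of 2.47 (0.03 over all genes, 10.8% of them higher), among them Ttn at 5.00 ± 0.36, Tnni3 at 5.94 ± 0.45, Actn2, the Z-disc actinin, at 3.35 ± 0.28, and Myl3 at 3.60 ± 0.31.

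From pup to adult heart 14 target genes fell and 1 rose, with a median difference of -0.83 against 0.09 over all genes, of which 9.33% fell. Ckm fell by 2.46 (SE 0.26), Srl, a protein of the sarcoplasmic reticulum, by 2.15 (SE 0.32) and Casq2, its calcium store, by 2.08 (SE 0.35). Tcap, the titin cap, rose by 1.92 ± 0.29. In hippocampus 4 target genes fell with age (7.43% of all genes did), among them Myh6 at -3.15 ± 0.65 and Actc1 at -4.11 ± 0.95, and 2 rose, Gja1 and Bmp10 (8.45% of all genes did). Actc1 averaged 12.52 in pup hippocampus and 8.41 in adult hippocampus, and the mean of the cardiomyocyte markers was as high as 10.99 in 1 pup hippocampus sample. The part of heart transcripts in the pup hippocampus samples was not tested.

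**Figure D4:**
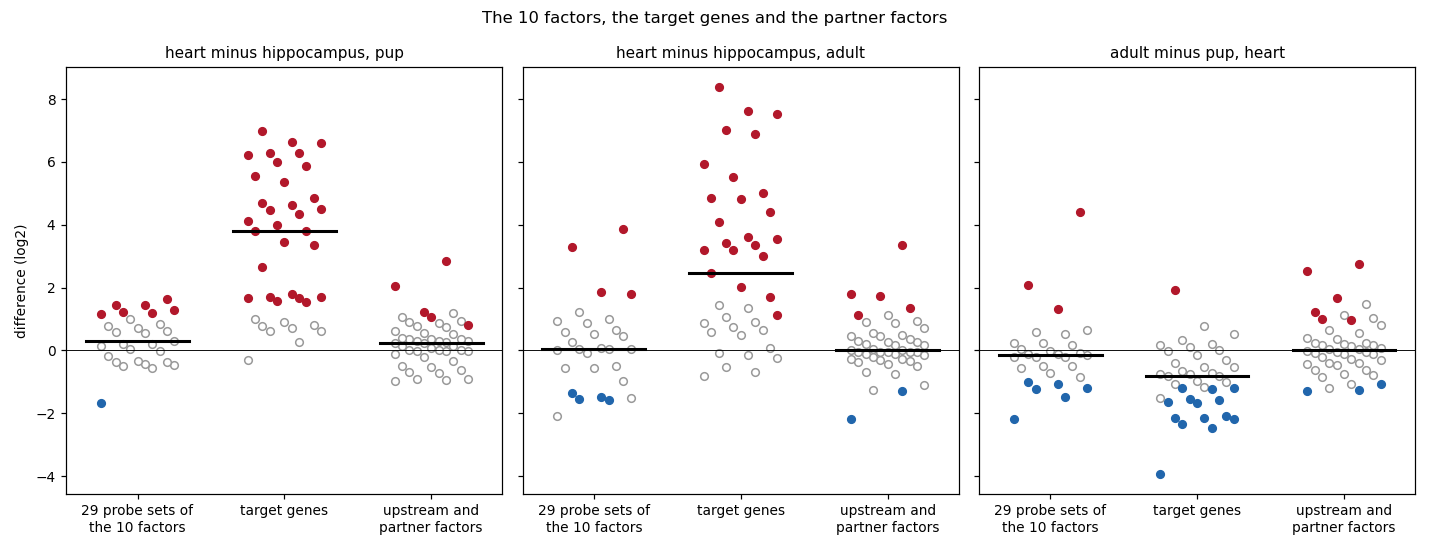
Differences on the log2 scale (vertical axis) of the 29 probe sets of the factors, the 39 measured target genes and the 46 measured upstream and partner factors in 3 comparisons, with 1 point per probe set or gene, filled red where higher, filled blue where lower, open where not called, and a bar at the median. The target genes have medians of 3.79 between pup tissues and 2.47 between adult tissues, against 0.31 and 0.06 for the factors.

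Of 49 listed upstream and partner factors, 46 were measured. In pups 5 were higher in heart and 0 lower, among them the Iroquois factors Irx3 at 2.84 ± 0.31 and Irx5 at 1.21 ± 0.24, the Notch effector Heyl at 2.05 ± 0.35 and the homeodomain protein Hopx at 1.06 ± 0.27. The median of the list was 0.25, and 7.24% of all genes were higher. In adults 5 were higher (10.8% of all genes were) and 2 lower (9.9%), shares near or below those over all genes, with Irx5 at 3.36 ± 0.30, Shox2, a factor of the sinus node, at 1.74 ± 0.33, Tbx1 at 1.13 ± 0.28 and Gata5, a GATA factor of the endocardium, at -2.20 ± 0.58.

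With age in heart, 6 of these partners rose (11.2% of all genes did) and 3 fell (9.33%). Irx5 rose by 2.74 ± 0.27 and Shox2 by 2.51 ± 0.30, while Csrp2, a LIM protein of smooth muscle, fell by 1.27 (SE 0.26) and Tbx18, a factor of the epicardium, by 1.31 (SE 0.30). In hippocampus 4 rose (8.45% of all genes did) and 2 fell (7.43%), Shox2 among the first at 1.68 ± 0.30. Irx5 was the 1 partner whose age difference was larger in heart than in hippocampus by the direct test, at 2.15 ± 0.38 (limma adjusted p = 0.0192).

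Close relatives of the members were followed through their leading probe sets, and the counts of calls in these small families are read against shares of all genes of 7.24% higher and 8.12% lower between pup tissues, 10.8% and 9.9% between adult tissues, and 11.2% and 9.33% with age in heart. In the GATA family of 11 genes, Gata4 and Gata2, the blood and endothelial form, were higher in pup heart, Gata2 by 1.85 ± 0.27, and Gata4 was higher in adult heart, where Gata5 and Trps1 were lower. Of 15 measured T-box genes Tbx20 was the 1 called in pups. In adults 3 were higher in heart, Tbx1, Tbx6 and Tbr1, and 2 lower, Mga at -2.40 ± 0.33 and Eomes at -1.13 ± 0.28. The leading probe set of Tbx5 was not called, while its other one, 1425694_at, was higher in adult heart. By the mean over probe sets Tbx5 was higher in adult heart as well (2.43 ± 0.30, limma adjusted p = 0.000845). With age in heart Tbx3, Tbx18, Tbx20 and Tbx21 fell and Tbr1 rose. By leading probe set, only Mef2c of the 4 MEF2 genes was called, lower in heart at each age. The leading probe set of Mef2a lay close to the top of the deposited range, and 3 of its other probe sets were higher in pup heart. By the mean over probe sets, Mef2a was higher in pup heart (0.72 ± 0.16, limma adjusted p = 0.0132). Mef2c was not called by that mean in either tissue comparison (limma adjusted p = 0.217 in pups and 0.0829 in adults). Of the 11 measured HAND and TWIST relatives, Hand2 was the 1 called between pup tissues and with age in heart. Of the 3 measured myocardin relatives, Myocd was the 1 called between adult tissues and with age in heart.

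MEF2-dependent genes of neurons were followed beside Mef2c. Of 20 listed, 18 were measured, and 4 were lower in pup heart than in pup hippocampus, where 8.12% of all genes were, and 1 higher. Gria1 and Gria2, glutamate receptor subunits, differed by -5.02 ± 0.30 and -4.88 ± 0.26, Rgs4 by -2.27 ± 0.25, and Jun by 1.89 ± 0.25. In adults 5 were lower (9.9% of all genes were) and 2 higher, with Gria1 at -4.05 ± 0.37 and Egr1, an activity-induced factor, at -2.29 ± 0.57. Neuron markers were lower in heart as well (5 of 10 at each age), and the part of cell composition in these differences was not tested.

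Markers of other cell types of the heart moved with age beside the members that fell. Over all genes, 9.33% fell and 11.2% rose from pup to adult heart. Of 8 fibroblast markers 5 fell with age in heart and 0 rose. Their mean lay between 12.68 and 13.22 in pup heart and between 10.54 and 10.55 in adult heart. In hippocampus 4 of these 8 fell with age as well and 1 rose, with means of 10.38 to 10.64 in pups and 9.59 to 9.79 in adults. A fall was thus seen in both tissues, and that of the mean was larger in heart. By the direct test of the change with age 1 of the 8, Postn, fell more in heart, where 1.16% of all genes were lower. Of 8 smooth muscle markers 3 fell and 1, Cnn1, rose, with a mean of 9.83 to 10.10 in pup heart and 9.27 to 9.40 in adult heart. Of 7 endothelial markers 3 fell and 0 rose, with means of 10.61 to 10.96 and 9.55 to 9.60. Of 10 cardiomyocyte markers 5 fell and 0 rose, and these 5 are among the target genes that fell. Of 8 atrial markers, which include Tbx5 through its leading probe set, 1 rose, Dkk3, and 2 fell, Myl7 and Nppa. Of 6 measured conduction system markers 1 rose, Shox2, and 1 fell, Tbx3. Of 6 ventricular markers 1 rose, Irx4, and 2 fell, Kcne1 and Lbh. Of 8 epicardium markers 0 rose and 1 fell, Tbx18. The part of these cell types in the differences of Tbx5, Tbx20, Mef2a, Hand2 and Myocd was not tested.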

How the data were processed

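Expression was measured on 14 single-colour arrays, which the authors turned into expression values with RMA, taking the upper decile of the probes (the submitters' processing notes give version 2.0). The deposited values were log2 expression of 45101 probe sets between 2.67 and 15.998, of which 64 array controls were left out. They were neither median centred nor range scaled, so the scaling the methods describe was an alternative. Background correction and detection calls are not given in the sources used here, and no value was compared with background. Probe sets were named from the platform annotation, with 34945 naming 1 gene, 932 several and 9160 unnamed here. Symbols were checked through Entrez identifiers for 34754 probe sets and 0 changed.

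Both technical arrays of each adult sample were averaged. Titles number adult replicates this way, while other labels number all 4 arrays of a tissue as biological replicates, which was an alternative. In R 4.3.3, limma 3.58.1 (with statmod 1.5.0) fitted 4 group means in 1 model with 6 residual degrees of freedom, and 5 contrasts were tested two-sided with Benjamini-Hochberg adjustment over 45037 probe sets. SE values are those of limma, and the fit was tested on simulated data. Every probe set of a member was followed. Each listed gene was read from the probe set with the highest mean over all arrays, and up to 4 called genes of a list with the lowest adjusted p were named, with others named where a count of calls was small. Alternatives were both scalings, handling of technical arrays, a filter on dim probe sets and a robust variance model. Others were the methods' t-test (run on unscaled values), fits of only the groups compared, a replicate block and leaving out each sample. The members and lists were chosen with earlier results of these data known.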

Additional observations from a re-analysis of the deposited data

Results flagged for a closer look

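The age difference in heart and that in hippocampus differed, by the limma test of that difference, on 4 probe sets. Tbx5 1425694_at had the largest, 3.73 log2 units (adjusted p = 0.00479), from a rise of 4.40 in heart and a difference of 0.67 in hippocampus that was not called. It was past the threshold in the 19 alternatives in which it was fitted, with values from 3.30 to 4.15, but the filter on dim probe sets left it out. The filter also left out the Mef2a and Myocd probe sets described next, and no value was compared with background.

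Tbx20 1453351_at had -2.96 (limma adjusted p = 0.0375), Myocd 1425978_at -1.80 (limma adjusted p = 0.0419) and Mef2a 1427186_a_at -1.73 (limma adjusted p = 0.0414). Leaving out 1 sample ended the call in 8 of 10 cases for Tbx20, 8 of 10 for Myocd and 7 of 10 for Mef2a. The Mef2a probe set lay between 4.62 and 6.16 in all samples, near the low end of the deposited range. Groups of 3 or 2 samples were not examined for single outlying samples.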

How the results depend on the processing

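No called difference of a member probe set changed sign under any alternative. Counts of called probe sets, out of 29, were most sensitive to the test and to the number of samples. The t-test named in the methods, run here on the deposited unscaled values, gave 2 at 5% and 0 at 0.1% between pup tissues (8 in limma). It gave 0 at both thresholds between adult tissues (8), with age in heart (9) and with age in hippocampus (1). Over all probe sets its calls at 5% were 1938 between pup tissues and 1887 with age in hippocampus. Between adult tissues it called 1 on the whole array, with age in heart also 1, and at 0.1% it called 0 in each comparison. Counts of 0 among the members therefore tell nothing about them where the test called almost no probe set. Fits of only the groups compared gave 5 between pup tissues, 3 with age in heart and 0 with age in hippocampus. Between adult tissues they gave 10, where 13200 of all probe sets were called against 9988 in the main fit. These fits ended the calls of Gata4, Tbx20 and Mef2a 1452347_at between pup tissues and that of Mef2c 1421028_a_at between adult tissues. With age in heart they ended those of Mef2a, Mef2c, Myocd and Tbx20 1422219_a_at. Leaving out dim probe sets, which removes Tbx5 1425694_at, Gata4 1418863_at, Mef2c 1421027_a_at and Myocd 1425978_at among others, gave 4 between adult tissues, 4 with age in heart, 0 with age in hippocampus and 1 for the difference between tissues in the change with age (4 over all probe sets). That last count was 7 with 4 adult arrays of a tissue as replicates and 7 with technical arrays in a random block (consensus correlation 0.0906). With the second technical arrays of adults alone, an alternative chosen after seeing the data, 5 were called with age in heart and 0 with age in hippocampus, and with the first alone 0 in hippocampus. Leaving out 1 sample gave 4 to 7 between pup tissues, 3 to 9 between adult tissues, 1 to 9 with age in heart, 0 to 1 with age in hippocampus (without adult hippocampus replicate 2 the call was of another probe set, Gata6 1425463_at, which was higher in adults, at 2.96 with adjusted p = 0.0259) and 1 to 6 for the difference between tissues in the change with age. Calls of genes by the mean over their probe sets were 2 between pup tissues (Gata4 and Mef2a), against 4 by the leading probe set, 2 between adult tissues (Gata4 and Tbx5), against 3, 1 with age in heart (Tbx5), against 3, and 1 with age in hippocampus, against 0. The last was Gata6, higher in adults by 1.20 (limma adjusted p = 0.0444), while the lower calls of Mef2c in heart were lost. For upstream and partner factors between pup tissues that mean gave 11 calls, against 5.

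With a replicate block, 4 probe sets were called between pup tissues and 2 for the difference between tissues in the change with age, and the age comparisons could not be blocked. The labels do not say whether same-numbered heart and hippocampus samples came from 1 animal. Correlations of deviations of same-numbered pup samples were 0.197, -0.084 and 0.006, and those of differently numbered ones lay between -0.156 and 0.160. For adults they were -0.055, but with 2 samples per tissue every pairing has a value of that size. These correlations cannot decide whether the samples were paired. Both other scalings moved the median age difference in heart over all probe sets, by -0.145 and -0.109. Depth is not a limit of arrays, but no signal was compared with background.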

Other observations

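The genes with the values most like a member over the 10 samples were found among 3164 genes with an SD of at least 1. The points share 4 groups, so these correlations are descriptions. For Gata4 1418864_at they were Arhgap6 (r = 0.956), Mcrip2 (0.944) and Pla2g1b (0.940). For Hand2 1436041_at they were the cotransporter Slc12a7 (r = 0.967), the mitochondrial cyclophilin Ppif (0.964) and the cell cycle subunit Cks2 (0.961). For Tbx20 1453351_at they were Hacd1 (r = 0.878), the cytokinesis protein Anln (0.874) and Grb10 (0.874). For Mef2c 1421028_a_at they were Trim9 (r = 0.963), Pou6f1 (0.958) and Trim46 (0.956), and 179 genes had an r over 0.9. For Myocd 1425808_a_at they were Rhcg (r = 0.944), Uevld (0.933) and Syne3 (0.914). Tbx5 1425694_at, added after its values were seen, was most like Cd244a (r = 0.991) and Tcstv1 (0.984), and 132 genes had an r over 0.9.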
